A study of Danio rerio with 24 samples.

Results

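The mitochondrial respiratory chain genes described here are nuclear genes chosen by symbol: those in the count tables whose names begin like a subunit of complex I (nduf), complex II (sdh), complex III (uqcr and cyc1), complex IV (cox4 to cox8) or complex V (atp5). This pattern found 93 of the 14781 genes in the files. Complex I holds 38 of them, complex II 5, complex III 9, complex IV 17 and complex V 16, and 8 are assembly factors of complexes I and II (ndufaf and sdhaf genes). No cytochrome c gene matched the pattern.

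RNA was sequenced from the brain and the whole kidney marrow of adult male EK zebrafish, 4 to 12 months old, 7 days after a 17 h bath in 0.5 to 0.7 µM tamoxifen. The ablation experiment holds brain of wild type fish after cardiomyocyte ablation (n = 2), brain of uninjured wild type fish (n = 2), kidney marrow of wild type fish after ablation (n = 2) and kidney marrow of uninjured wild type fish (n = 2). The cebpd experiment holds brain of cebpd homozygous knockout fish (n = 3) and of cebpd wild type fish (n = 3), both after cardiomyocyte ablation. The labels name no transgene or promoter behind the ablation, and do not say whether uninjured fish went through the bath. Nor do they tie each replicate to its own animal, and p-values below measure the spread among libraries, which may be technical. The kidney was frozen whole, so its libraries can hold nephron RNA besides blood-forming cells.

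The respiratory chain sits in the inner mitochondrial membrane. Complex I takes electrons from NADH and complex II takes them from succinate, complex III passes them to cytochrome c, and complex IV hands them to oxygen. Protons pumped along the way drive the ATP synthase, complex V. A few core subunits carry the electrons or make ATP, and many accessory subunits surround them. Some subunits of complex IV exist in mammals as tissue-specific copies, such as the heart and skeletal muscle forms COX6A2 and COX7A1. Neurons depend heavily on this pathway for ATP.

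The 8 libraries with the ablation contrast held 14364306 to 20469655 reads on genes, and the 6 with the cebpd contrast held 4377028 to 6280007. The tissue labels were checked against marker genes fixed as lists, on CPM (counts relative to the TMM-scaled library total). All 15 neuronal markers were called higher in uninjured brain than in uninjured kidney marrow, with summed levels of 14000 to 14100 against 126 to 132 CPM. All 9 neutrophil markers were lower in brain, at 49.1 to 60.1 against 5400 to 5540 CPM. Nephron markers summed to 1010 to 1020 CPM in brain and 7790 to 8350 CPM in kidney marrow. The targeted gene cebpd had 1.3, 3.05 and 0.906 CPM in knockout brains, against 49.4, 78.4 and 41.7 CPM in brains labelled wild type.

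Of the 93 genes, 90 had reads in every library. ndufa13 and ndufaf3 are listed at 0 in all 14 libraries, and ndufs8b has 9 reads in total among 170395453 gene reads. How the counting treated reads that fit several near-identical copies is not given in the sources used here. Levels of copies such as sdhda and sdhdb, or atp5g1, atp5g3a and atp5g3b, are therefore uncertain to the extent that reads are shared. In the RefSeq gene table (GRCz12tu) 74 of the 93 symbols are current and 19 are older names. In that table ndufa4 is ndufa4b, ndufa4l is ndufa4a, cox7a3 is cox7a2l and atp5s is dmac2l. The gene atp5s is counted in complex V by its older symbol alone. The older names of sdhda and sdhdb are swapped between the 2 entries, so which copy either symbol stands for here is uncertain.

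Summed over the 93 genes, the respiratory chain took 1.09% and 1.22% of gene reads in ablated brain, against 1.16% and 1.1% in uninjured brain. In kidney marrow the sum was 1.24% and 1.36% after ablation, against 1.18% and 1.25% in uninjured fish. In the cebpd experiment it was 1.46%, 1.56% and 1.52% in knockout brains, against 1.53%, 1.36% and 1.56% in wild type brains. The totals of each of these 3 pairs of groups overlap. By complex, 3 sums did not overlap in kidney marrow. Complex V took 0.525% and 0.568% after ablation, against 0.482% and 0.499% in uninjured fish. Complex III took 0.130% and 0.145% after ablation, against 0.121% and 0.128% in uninjured fish. Assembly factors were above in the ablated libraries in both tissues, at 0.0131% and 0.0145% against 0.0121% and 0.0126% in kidney marrow and at 0.0170% and 0.0177% against 0.0161% and 0.0159% in brain. These sums were not tested, and they are shares of unscaled reads. In kidney marrow their separation depends on the scaling. On CPM scaled over all 14 libraries the 3 sums overlap between the groups. With the TMM scaling of the kidney marrow comparison alone, complex III overlaps and the other sums do not. Between the uninjured tissues the complexes differed in opposite directions. Complex II took 0.109% and 0.106% of gene reads in brain, against 0.0566% and 0.0650% in kidney marrow. Complex V took 0.387% and 0.364% in brain, against 0.482% and 0.499% in kidney marrow. Complex IV took 0.181% and 0.168% in brain and 0.228% and 0.244% in kidney marrow. Complex I took 0.346% and 0.332% in brain, against 0.283% and 0.3% in kidney marrow. These shares are not TMM-scaled. By the scaled fold changes described below, 24 of 36 tested complex I genes lay below 0 in brain (median -0.09). The shares of complex III overlapped, at 0.124% and 0.118% in brain and 0.121% and 0.128% in kidney marrow. In bulk tissue, fewer cells of a type and less RNA per cell cannot be told apart.

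**Figure D1:**
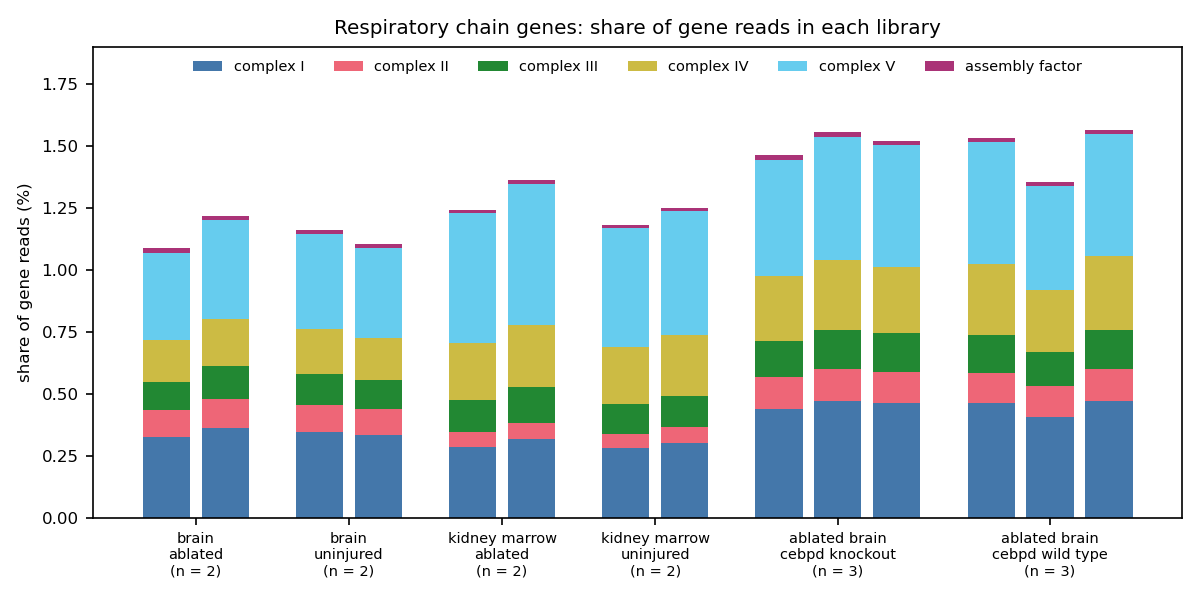
Share of gene reads (%, vertical axis) taken by respiratory chain genes in each of the 14 libraries, stacked by complex, with libraries grouped by tissue, ablation and cebpd genotype. The totals run from 1.09% in an ablated brain library to 1.56% in libraries of the cebpd experiment, and complex V is taller in kidney marrow than in uninjured brain.

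The comparison of uninjured brain with uninjured kidney marrow shows how the respiratory chain differs between the tissues before any injury. Complex II genes and assembly factors were mostly higher in brain, while genes of complexes III, IV and V were mostly lower. The largest differences were in genes that have several copies. cox6a2, cox7a1 and cox5b2 of complex IV were low in brain and abundant in kidney marrow. ndufa4 and sdhda showed the opposite.

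edgeR called 16 of the 90 tested genes higher in brain, where 38.9% of all tested genes were higher, and 41 lower, where 39.2% were. The remaining 33 did not pass. The same shares of all tested genes, 38.9% higher and 39.2% lower, stand beside the counts by complex below. The median log2 fold change was -0.20 over the 90 genes and -0.0016 over all tested genes. Without either uninjured brain library fewer of the 90 genes were called lower in brain. Fewer were called lower over all tested genes too, by a smaller part. DESeq2 called 16 higher (36.8% of all tested genes) and 34 lower (36.4%), and of the genes named below it did not call ndufab1a, uqcrfs1 and uqcrc1. By sign alone 28 genes lay above 0, where 50% of all tested genes did. The libraries of the tissues did not overlap for 25 genes on the higher side (45.3% of all tested genes) and 56 on the lower side (45.1%).

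In complex II, which holds the enzyme shared with the citric acid cycle, 3 of 5 genes were higher in brain and 0 lower. sdha, the flavoprotein that oxidises succinate, stood at 598 and 618 CPM in brain and 335 and 388 CPM in kidney marrow, a log2 fold change of 0.75 (SE 0.10, edgeR adjusted p = 0.000826). sdhb, the iron-sulfur subunit, stood at 193 and 196 CPM in brain and 139 and 148 CPM in kidney marrow (0.44, SE 0.08, adjusted p = 0.00394). Neither gene overlapped between the tissues, although the call of sdhb was lost without either uninjured brain library. The membrane anchor is encoded by sdhc and by a pair of copies, sdhda and sdhdb. sdhda stood at 38.2 and 34.5 CPM in brain and 0.905 and 0.850 CPM in kidney marrow, a log2 fold change of 5.36 (SE 0.17, adjusted p = 2.5e-06). sdhdb stood at 62.2 and 69.2 CPM in brain and 69.7 and 70.5 CPM in kidney marrow, a log2 fold change of -0.09 (SE 0.10) that did not pass (adjusted p = 0.409). sdhc did not pass either.

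Complex I genes split, with 5 higher in brain, 10 lower and 21 not past the threshold. ndufa4, whose mammalian counterpart was first assigned to complex I and then found in complex IV, stood at 450.0 and 477 CPM in brain and 36.02 and 60.4 CPM in kidney marrow (log2 fold change 3.27, SE 0.25, adjusted p = 7.38e-05). Its copy ndufa4l ran the other way, at 91.3 and 87.4 CPM in brain and 378 and 424 CPM in kidney marrow (-2.16, SE 0.10, adjusted p = 8.34e-06). The ranges of the tissues do not overlap for either copy. The accessory subunit gene ndufa3 stood at 99.96 and 101 CPM in brain and 34.7 and 39.1 CPM in kidney marrow (1.45, SE 0.10, adjusted p = 5e-05). The other genes higher in brain, named after their values were seen, were ndufs7 (0.52), ndufa5 (0.50) and ndufb9 (0.41).

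Core subunits of complex I, which carry the flavin and the iron-sulfur clusters or bind ubiquinone, differed in both directions, with ndufs7 higher in brain. ndufs8a was lower in brain by a log2 fold change of -0.53 (SE 0.08, adjusted p = 0.00171). ndufs1 had -0.17 (SE 0.08, adjusted p = 0.0899) and ndufv1 had -0.04 (SE 0.09, adjusted p = 0.698), neither past the threshold. The 95% interval of ndufv1 ran from -0.25 to 0.18. Of the copies of the acyl carrier subunit, ndufab1a was called lower in brain (-0.26, adjusted p = 0.0352) and ndufab1b was not called (0.16, adjusted p = 0.181). The call of ndufab1a was lost without either uninjured brain library.

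In complex III 6 of 9 genes were lower in brain and 0 higher, all by less than a factor of 2 (log2 fold changes of -0.68 to -0.25). These fold changes rest on the TMM scaling, and the unscaled share of gene reads of complex III overlapped between the tissues. uqcrc2a, a core protein gene, stood at 66.05 and 57.6 CPM in brain and 96.6 and 101 CPM in kidney marrow (-0.68, SE 0.10, adjusted p = 0.0016). Its copy uqcrc2b had -0.33, and the other core protein gene uqcrc1 had -0.25. The electron carriers cyc1, which encodes cytochrome c1, and uqcrfs1, which encodes the Rieske iron-sulfur protein, had -0.33 (SE 0.09, adjusted p = 0.0147) and -0.25 (SE 0.08, adjusted p = 0.0342). The calls of uqcrc2b, uqcrc1, cyc1 and uqcrfs1 were lost without either uninjured brain library.

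In complex IV, which reduces oxygen to water, 3 of 17 genes were higher in brain, 11 lower and 3 not past the threshold. The most negative log2 fold changes of the 90 genes lay here. cox6a2 stood at 1.87 and 2.20 CPM in brain and 254 and 236 CPM in kidney marrow, a log2 fold change of -6.91 (SE 0.13, adjusted p = 9.31e-07). cox7a1 stood at 0.907 and 1.22 CPM in brain and 80.1 and 75 CPM in kidney marrow (-6.18, SE 0.17, adjusted p = 1.64e-06). Both genes are named after mammalian heart and skeletal muscle forms. Markers of striated muscle were also lower in brain, 9 of 15 tested against 1 higher, where 39.2% of all tested genes were lower. Their summed levels were 69.1 to 96.0 CPM in brain and 256 to 431 CPM in kidney marrow, with none at 0. Other lists were lower in brain too, with 11 of 14 nephron (3 higher), 10 of 10 erythroid, 9 of 9 neutrophil and 8 of 8 endothelial genes. All tested neuronal, radial glia and oligodendrocyte genes were higher. The part of any of these cells in cox6a2 and cox7a1 was not tested. cox5b2, a copy of a structural subunit, stood at 4.20 and 5.38 CPM in brain and 170.0 and 189 CPM in kidney marrow (-5.23, SE 0.15, adjusted p = 2.02e-06).

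The other copies of complex IV subunits differed in both directions. cox6a1 stood at 159 and 152 CPM in brain and 59.3 and 58.3 CPM in kidney marrow (log2 fold change 1.40, SE 0.09, adjusted p = 2.83e-05). cox7a2a stood at 74.5 and 72.7 CPM in brain and 44.1 and 46.8 CPM in kidney marrow (0.70, SE 0.09, adjusted p = 0.000817). cox7a3, which RefSeq names after a mammalian supercomplex factor, was lower in brain at 35.8 and 33.0 against 71.0 and 74.6 CPM (-1.08, SE 0.10, adjusted p = 0.000162). cox4i2, named after the mammalian lung form of subunit 4, stood at 72.7 and 73.8 CPM in brain and 28.4 and 33.3 CPM in kidney marrow (1.25, SE 0.11, adjusted p = 0.000162). cox4i1, the widespread form, was lower in brain by -0.45 (SE 0.08, adjusted p = 0.00328), a call lost without either uninjured brain library. cox8b was lower in brain (-1.41, SE 0.09, adjusted p = 3.13e-05), and cox8a had 0.22 (SE 0.08) and did not pass (adjusted p = 0.0502). Both copies were lower in brain for cox5aa (-0.67) and cox5ab (-0.44), and for cox6b1 (-0.70) and cox6b2 (-1.06). The call of cox5ab was lost without either uninjured brain library.

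**Figure D2:**
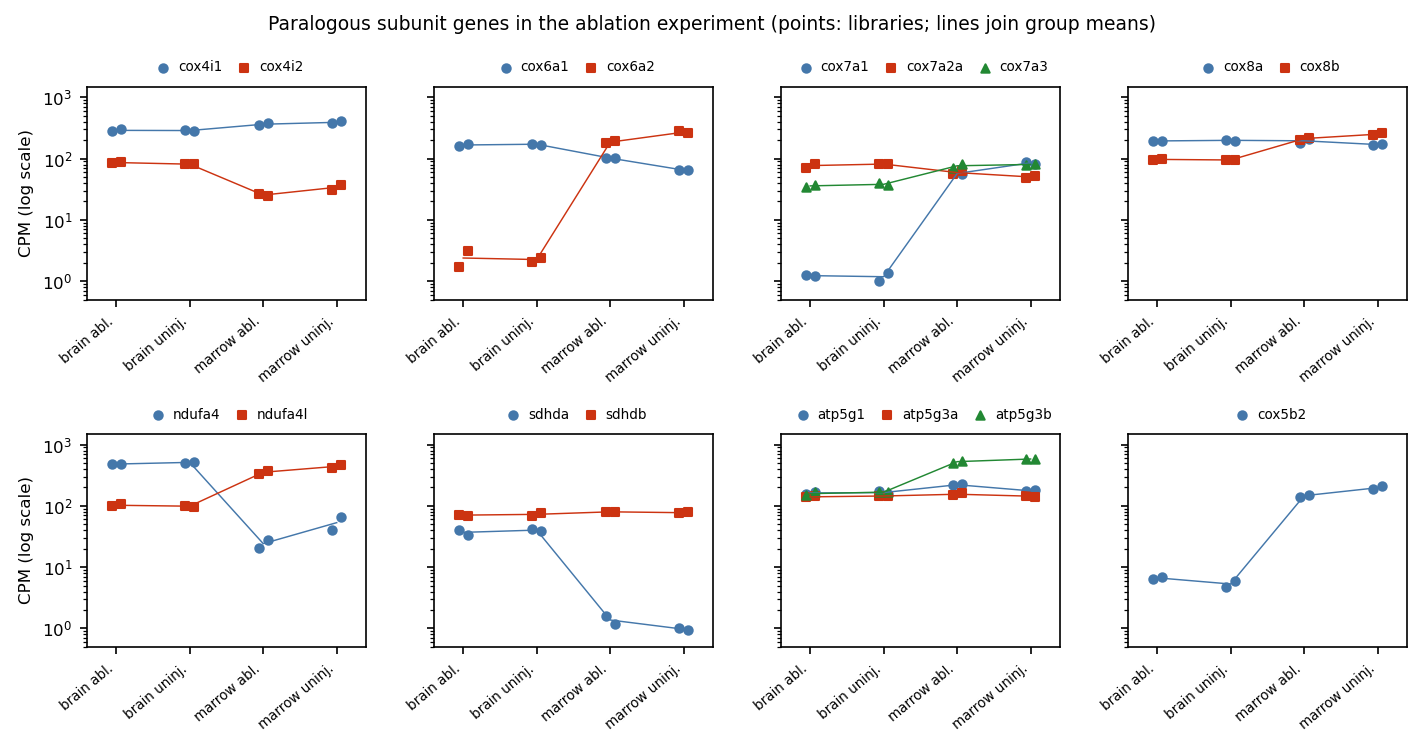
Levels (CPM scaled over all 14 libraries, log axis) of 7 sets of related subunit genes and of cox5b2 in the 8 libraries of the ablation experiment, with ablated left of uninjured within each tissue (points are libraries, n = 2 per group, and lines join group means). cox6a2, cox7a1 and cox5b2 lie under 10 CPM in brain and above 40 CPM in kidney marrow, while cox6a1, cox7a2a, cox4i2, ndufa4 and sdhda are higher in brain.

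In complex V 13 of 16 genes were lower in brain, 1 was higher and 2 did not pass. The subunits of the catalytic core were all lower. atp5a1 (alpha subunit) stood at 774 and 733 CPM in brain and at 1117 CPM in each kidney marrow library (log2 fold change -0.57, SE 0.08, adjusted p = 0.000902). atp5b (beta subunit) had -0.47, and atp5c1 (gamma subunit, the rotating shaft) had -0.74 (SE 0.08, adjusted p = 0.000403). The epsilon subunit gene atp5e stood at 41.3 and 41.4 CPM in brain and 83.1 and 88.0 CPM in kidney marrow (-1.05, SE 0.09, adjusted p = 0.000129). atp5l, which encodes subunit g of the membrane part, had -0.79. Of the 3 genes for the membrane ring, atp5g3b stood at 151 and 151 CPM in brain and 520 and 534 CPM in kidney marrow (-1.80, SE 0.08, adjusted p = 7.42e-06). atp5g3a had 0.01 (SE 0.08, 95% interval -0.20 to 0.21) and was not called. atp5ia, 1 of 2 copies for subunit e, was the gene higher in brain (0.36, adjusted p = 0.0256), while atp5ib was lower (-0.70, adjusted p = 0.000506). The call of atp5ia was lost without either uninjured brain library, and that of atp5b was lost without replicate 2.

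Among the assembly factors 4 of 7 tested were higher in brain and 1 lower. sdhaf4, which helps mature the sdha subunit, stood at 24.4 and 25.6 CPM in brain and 13.4 and 13.7 CPM in kidney marrow (0.88, SE 0.12, adjusted p = 0.00078). ndufaf7, a methyltransferase acting on complex I, had 0.81, and ndufaf2, a chaperone of late complex I assembly, had 0.70. Without uninjured brain replicate 2 the call of ndufaf7 was lost, and without replicate 1 that of ndufaf2. Named after their values were seen, sdhaf3 had 0.68 and ndufaf1 was the lower gene (-0.48).

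**Figure D3:**
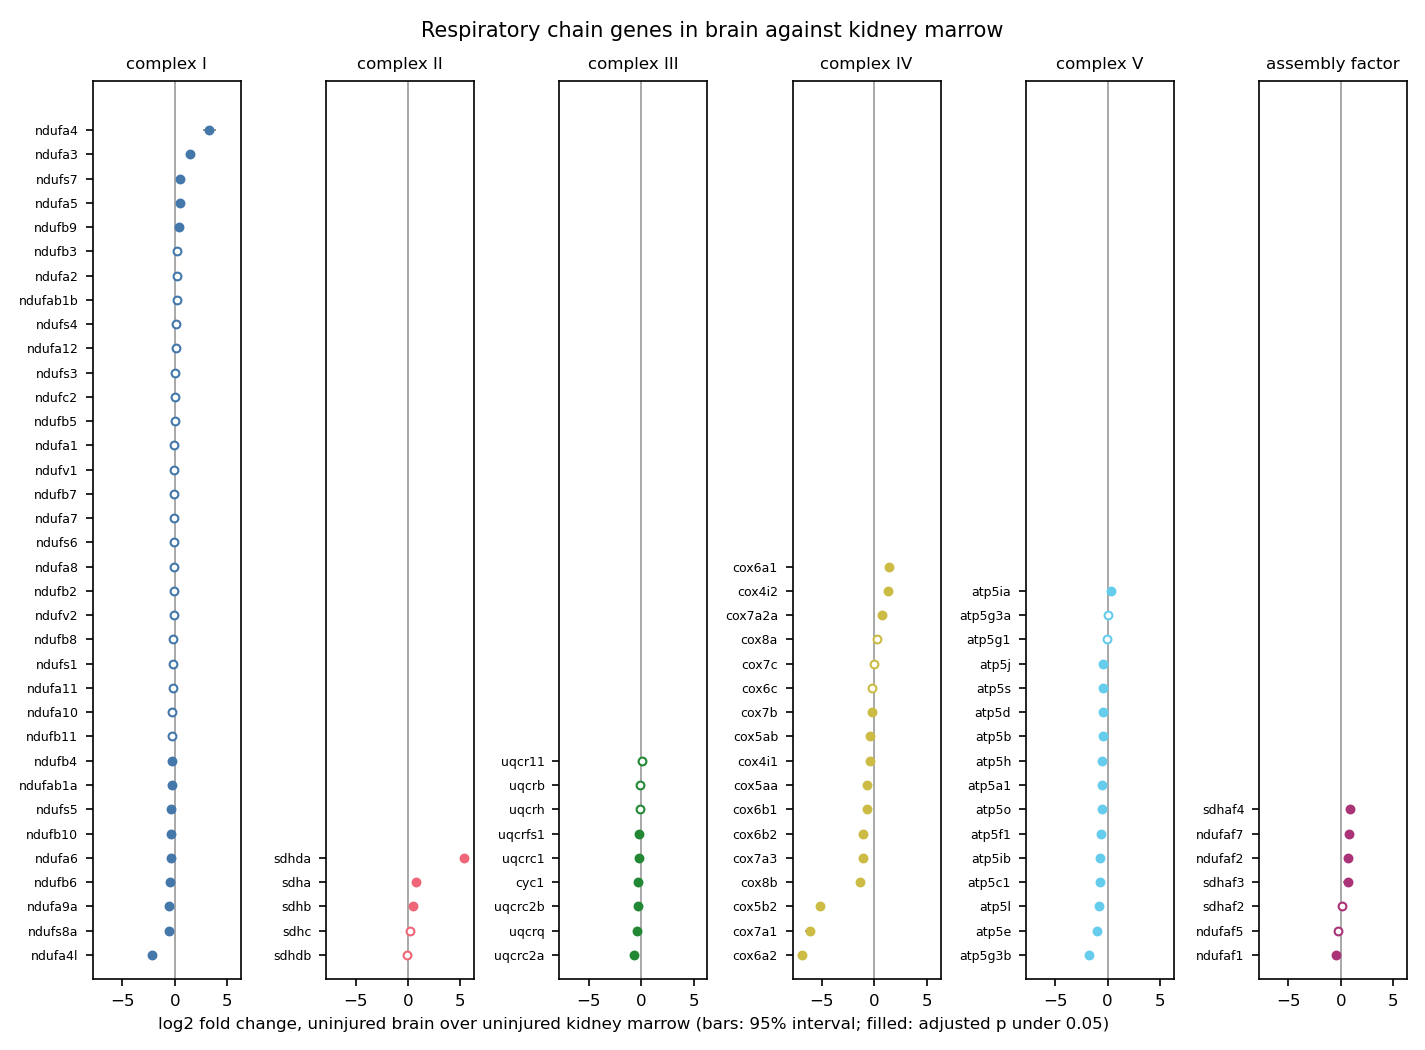
Log2 fold change of uninjured brain over uninjured kidney marrow (horizontal axis) for 89 of the 90 tested respiratory chain genes, one panel per complex and one for assembly factors; bars are 95% intervals and filled points passed an adjusted p of 0.05. Most complex V genes lie left of 0, and cox6a2, cox7a1 and cox5b2 on the left and sdhda and ndufa4 on the right stand away from the rest.

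The same tissue comparison in ablated fish uses 4 other libraries. There 55 of the 90 genes passed. Over all tested genes 5273 were higher and 5304 lower in that fit, against 5036 (38.9%) and 5065 (39.2%) in uninjured fish. Of the 90 genes, 52 were called in both comparisons in the same direction. That is 91.2% of the calls in uninjured fish and 94.5% of those in ablated fish. The same agreement was not computed over all genes. None of the 90 was called in opposite directions by edgeR. In ablated fish cox6a2 stood at 1.63 and 2.97 CPM in brain and 172 and 188 CPM in kidney marrow, and sdhda at 39.5 and 31.7 against 1.52 and 1.13 CPM. Of the genes named above, ndufaf7, uqcrfs1, atp5ia and atp5s were called in uninjured fish and not in ablated fish. The log2 fold change of atp5s was -0.43 in uninjured fish and 0.04 in ablated fish. The log2 fold change of cox6a1 was 0.71 in ablated fish and 1.40 in uninjured fish.

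The comparison of ablated with uninjured brain asks whether an injury of the heart moved these genes in the brain. No respiratory chain gene passed the threshold. edgeR called 0 of 90 higher, where 0.283% of all tested genes were higher, and 0 lower, where 0.17% were. DESeq2 also called 0 in each direction (0.299% of all tested genes higher and 0.234% lower). At an unadjusted p under 0.05 edgeR had 1 higher, where 3.36% of all tested genes were, and 0 lower, where 3.48% were. Log2 fold changes ran from -0.13 to 0.34 with a median of -0.029, against -0.0013 over all tested genes. For 86 of the 90 genes the 95% interval lay within 0.5 log2 units on either side of 0, as it did for 71.4% of all tested genes. The median interval reached 0.15 log2 units on either side of its estimate.

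The gene with the smallest p was ndufaf2, the complex I assembly factor. It stood at 17.0 and 13.97 CPM in ablated brain and 13.1 and 11.4 CPM in uninjured brain (log2 fold change 0.33, SE 0.14, adjusted p = 0.647, edgeR). cox5b2 stood at 6.38 and 6.93 CPM in ablated brain and 4.63 and 5.94 CPM in uninjured brain (0.34, SE 0.18, adjusted p = 0.788). The ablated libraries lie above the uninjured ones for both genes. sdhaf2, which attaches the flavin to sdha, had 0.11, cox4i2 had 0.09 and ndufv2, a core subunit of complex I, had 0.06, all with adjusted p above 0.8.

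On the low side the differences were smaller. atp5b, the catalytic beta subunit of the ATP synthase, stood at 1039 and 1099 CPM in ablated brain and 1142 and 1113 CPM in uninjured brain (log2 fold change -0.08, SE 0.05, adjusted p = 0.843, edgeR). atp5f1, the stator subunit b, had -0.09, atp5d, the delta subunit, had -0.11, ndufa4 had -0.09 and ndufa10, an accessory subunit of complex I, had -0.10. In complex V 13 of 16 genes lay below 0, and in complex I 28 of 36 did. Over all 90 genes 28 lay above 0, or 31.1%, where 49.6% of all tested genes did. That count rested on single ablated libraries, being 57 of 90 without ablated brain replicate 1 and 14 of 90 without ablated brain replicate 2. The libraries of the groups did not overlap for 5 genes on the higher side (18.1% of all tested genes) and for 19 on the lower side (18% of all tested genes).

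In kidney marrow, where blood cells are made, edgeR called 0 of 90 genes higher and 0 lower after ablation, as it did for all tested genes (0% in each direction of 12160). The copies of complex IV subunits had the smallest p. cox6a1 reached 91.1 and 90.6 CPM after ablation, against 56.3 and 55.6 CPM in uninjured fish, a log2 fold change of 0.70 (SE 0.10, edgeR adjusted p = 0.0793). cox6a2, its alternative copy, stood at 159 and 173 CPM after ablation, against 241 and 225 CPM in uninjured fish (-0.49, SE 0.11, adjusted p = 0.115). cox7a1 stood at 52.3 and 49.8 CPM after ablation, against 76.0 and 71.6 CPM in uninjured fish (-0.53, SE 0.10, adjusted p = 0.102). None of these 3 genes overlapped between the groups. The libraries did not overlap for 27 of the 90 genes on the higher side (30%, against 27.7% of all tested genes). On the lower side they did not overlap for 12 (13.3%, against 24.3%).

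DESeq2 called 1 gene higher, where 3.53% of all tested genes were, and 3 lower, where 1.46% were. The higher gene was cox6a1 (0.68, DESeq2 adjusted p = 0.00113). The lower ones were ndufa4 (-1.10, adjusted p = 0.0101), cox6a2 (-0.51, adjusted p = 0.0236) and cox7a1 (-0.55, adjusted p = 0.0246). In an edgeR fit of all 8 libraries of the ablation experiment cox6a1 and atp5g1 were higher and cox7a1 and ndufa4 lower, out of 912 genes higher and 440 lower in all. At an unadjusted p under 0.05 edgeR had 3 genes higher, where 12.3% of all tested genes were, and 6 lower, where 7.34% were.

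ndufa4 stood at 18.7 and 24.5 CPM after ablation, against 34.2 and 57.6 CPM in uninjured fish (log2 fold change -1.08, SE 0.29, edgeR adjusted p = 0.145). The uninjured libraries are far apart, and the estimate was -0.66 without uninjured replicate 2 and -1.41 without uninjured replicate 1. atp5g1, 1 of the membrane ring genes, stood at 192 and 203 CPM after ablation, against 149 and 155 CPM in uninjured fish (0.38, SE 0.10, adjusted p = 0.143). cox7a2a stood at 50.2 and 55.4 CPM after ablation, against 41.9 and 44.6 CPM in uninjured fish (0.29, SE 0.11, adjusted p = 0.253). ndufaf2 had 0.42, cox8a 0.25, cox5b2 -0.39 and cox4i2 -0.38, with edgeR adjusted p of 0.166 to 0.330 for these 4. For each of these 7 genes the libraries of the groups did not overlap, as for 27.7% of all tested genes on the higher side and 24.3% on the lower side.

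**Figure D4:**
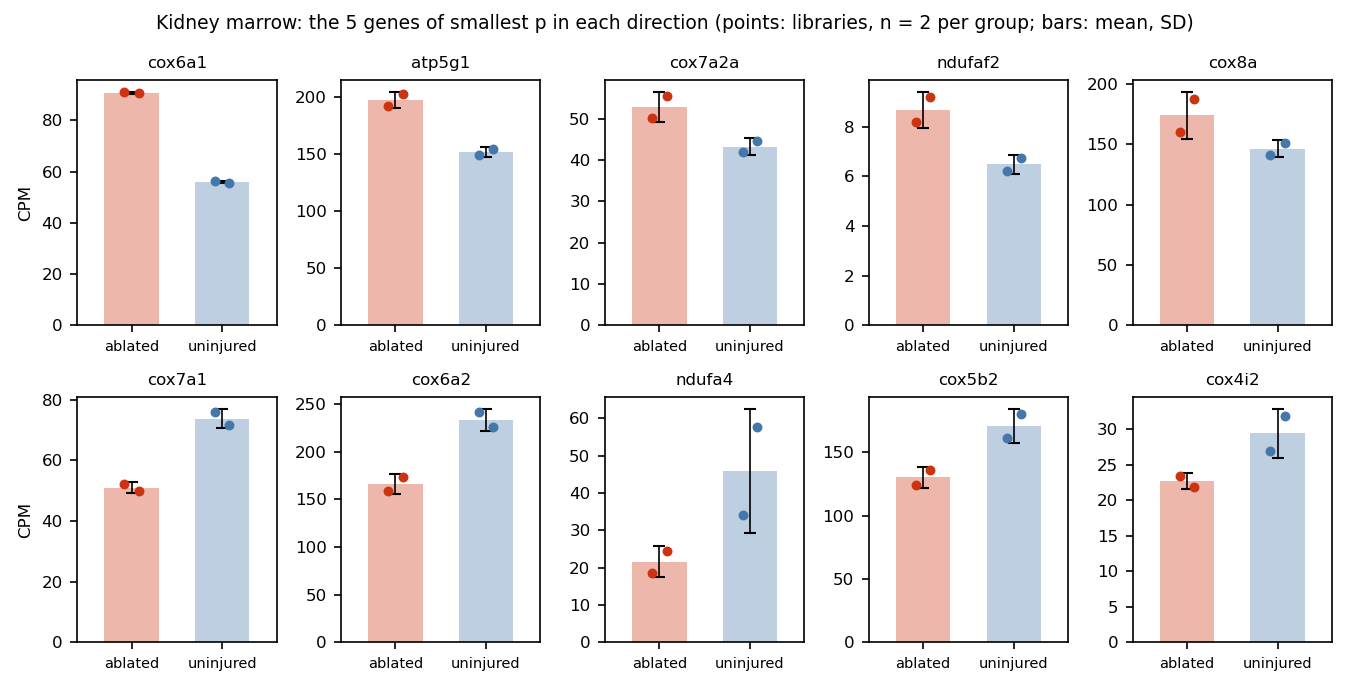
Levels (CPM, linear axes from 0) in kidney marrow after ablation and in uninjured fish for the 5 respiratory chain genes of smallest p on the higher side (upper row) and on the lower side (lower row); points are libraries, bars are means with SD, n = 2 per group. cox6a1 lies at 90.6 and 91.1 CPM after ablation and near 56 CPM in uninjured fish, and the uninjured libraries of ndufa4 are far apart.

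The rest of the chain lay close to 0 in kidney marrow. The median log2 fold change was 0.03 over the 90 genes and -0.01 over all tested genes, and 57 genes lay above 0 (63.3%, against 49% of all tested genes). The median was -0.03 with 35 genes above 0 without ablated replicate 2, and 0.10 with 72 above 0 without ablated replicate 1. For 73 of 90 genes the 95% interval lay within 0.5 log2 units of 0, as it did for 26.3% of all tested genes. The core subunits ndufs1, ndufv1, sdha, sdhb, cyc1, uqcrfs1 and atp5a1, with cox4i1 and cox5aa, had estimates of -0.06 to 0.07. uqcrc1 had 0.09, atp5b 0.11 and atp5c1 0.14, none of them called. The ablated libraries lay above the uninjured ones for uqcrc1, atp5a1, atp5b and atp5c1. They overlapped with them for ndufs1, ndufv1, sdha, sdhb, cyc1, uqcrfs1, cox4i1 and cox5aa.

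Several marker lists of other cells differed in the same libraries, although edgeR called 0 of their genes. Over all tested genes 49% lay above 0, and DESeq2 called 3.53% higher and 1.46% lower. All 14 cell cycle genes lay above 0 (summed levels 1720 to 2020 CPM after ablation and 773 to 1150 CPM in uninjured fish), and DESeq2 called 11 of them higher. All 10 erythroid genes lay above 0, with 4 called higher by DESeq2, but their summed levels overlapped (7530 to 12500 against 5930 to 8790 CPM). Thrombocyte genes lay above 0 for 4 of 4 (143 to 149 against 70.6 to 82.4 CPM) and endothelial genes for 7 of 8 (1300 to 1780 against 775 to 834 CPM), and DESeq2 called 3 of each list higher. On the other side, 0 of 7 lymphocyte genes lay above 0 (30.9 to 31.5 CPM after ablation and 44.4 to 48.2 CPM in uninjured fish). Nephron genes, 4 of 14 above 0, summed to 5900 to 6850 CPM after ablation and 7400 to 7970 CPM in uninjured fish, with 1 called higher and 2 lower by DESeq2. Striated muscle genes, 1 of 14 above 0, had overlapping sums of 109 to 250 CPM after ablation and 244 to 409 CPM in uninjured fish. DESeq2 called 1 of them lower. No gene of these 7 lists was at 0 over the 4 libraries, and the part of such cells in the values of cox6a1, cox6a2, cox7a1 and ndufa4 was not tested. In the other 6 marker lists DESeq2 called 1 gene, a neutrophil gene that was lower. Among these lists, neutrophil sums were lower after ablation without overlap (4510 to 4980 against 5150 to 5260 CPM). So were neuronal (94.9 to 103 against 120 to 126 CPM) and oligodendrocyte sums (96.2 to 96.3 against 99.3 to 116 CPM). Radial glia sums were higher (129 to 171 against 103 to 107 CPM).

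The difference between the tissues in their response to ablation was tested directly, as the change in brain minus the change in kidney marrow. edgeR called 0 of 90 genes with a positive difference (0.0382% of all tested genes) and 0 with a negative one (0.222%). cox6a1 came nearest, with -0.74 (SE 0.11, edgeR adjusted p = 0.0509), from a log2 fold change of -0.04 in brain and 0.70 in kidney marrow. DESeq2 called it (-0.68, adjusted p = 0.00116), and with it cox5b2 (0.79, adjusted p = 0.0485) and ndufa4 (1.05, adjusted p = 0.036), where 1.22% of all tested genes were called negative and 0.795% positive. By edgeR cox5b2 had a difference of 0.74 (adjusted p = 0.118), ndufa4 0.99 (adjusted p = 0.182) and cox4i2 0.47 (adjusted p = 0.168). Without uninjured kidney marrow replicate 1, the edgeR difference was 0.63 for cox4i2, 1.365 for ndufa4 and -0.70 for cox6a1. At an unadjusted p under 0.05 there were 5 positive differences (6.3% of all tested genes) and 3 negative ones (9.69%). In all, 27 of the 90 differences were above 0, where 51.7% of all tested genes were; with RLE size factors 41 were. The direction rested on single libraries, as 62 of 90 lay above 0 without ablated kidney marrow replicate 2 (median 0.0755, against -0.0632 with all libraries) and 21 without ablated brain replicate 2. The median over all tested genes moved as well. It was 0.0153 with all libraries, 0.066 without ablated kidney marrow replicate 2 and 0.0688 with RLE size factors. The other genes of smallest p were atp5s (0.42) and ndufa4l (0.32) on the positive side and atp5g1 (-0.40), cox7a2a (-0.37), atp5d (-0.26) and ndufa10 (-0.24) on the negative side.

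The cebpd comparison asks whether loss of this C/EBP transcription factor moved the respiratory chain genes in the ablated brain. edgeR called 0 of 89 tested genes higher in knockout brain (0.036% of all tested genes) and 0 lower (0.0991%). DESeq2 called 0 in each direction (0.0991% of all tested genes higher and 0.351% lower). At an unadjusted p under 0.05 edgeR had 0 higher, where 3.55% of all tested genes were, and 1 lower, where 4.95% were. The median log2 fold change was -0.0044 over the 89 genes and -0.00062 over all tested genes, and 41 lay above 0 (49.9% of all tested genes did). That count was 55 without wild type replicate 1 and 16 of 90 without wild type replicate 2. For 86 of the 89 genes the 95% interval lay within 0.5 log2 units of 0, against 65.4% of all tested genes.

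cox6c, a small accessory subunit of complex IV, had the smallest p. It stood at 153, 151 and 157 CPM in knockout brains and 198, 161 and 207 CPM in wild type brains, a log2 fold change of -0.30 (SE 0.09, edgeR adjusted p = 0.280). All knockout libraries lie below all wild type libraries, as for 6.68% of all tested genes. Without wild type replicate 2, the lowest of the wild type libraries, cox6c was called lower (-0.40, edgeR adjusted p = 0.0414). cox7c and cox8a, other small subunits of complex IV, had -0.13 and -0.14, ndufa3 had -0.14 and uqcrq, a subunit of complex III, had -0.16, with overlapping groups and edgeR adjusted p of 0.706 to 0.752. On the higher side, sdhb stood at 253, 245 and 249 CPM in knockout brains and 244, 204 and 234 CPM in wild type brains (0.13, SE 0.07, adjusted p = 0.656, edgeR). The knockout libraries of sdhb lie above the wild type ones, as for 7.03% of all tested genes. atp5c1 had 0.11, ndufs8a 0.13 and atp5ia 0.22, all with overlapping groups.

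The copies that differed most between the tissues overlapped between the genotypes. cox5b2 stood at 8.16, 9.997 and 6.16 CPM in knockout brains and 7.83, 7.86 and 5.56 CPM in wild type brains, and ndufa4 at 490, 501 and 472 CPM against 537, 433 and 481 CPM. sdhda stood at 40.8, 51.8 and 36.04 CPM in knockout brains and 52.0, 37.7 and 45.5 CPM in wild type brains. cox7a1 stood at 4.02, 0.772 and 1.99 CPM in knockout brains and 3.25, 2.26 and 4.08 CPM in wild type brains. Its values are CPM scaled over all 14 libraries. It had the most negative log2 fold change of complex IV (-0.53) and was not called. All of these genes were named after their values were seen. cox6a2 had too few reads to be tested.

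**Figure D5:**
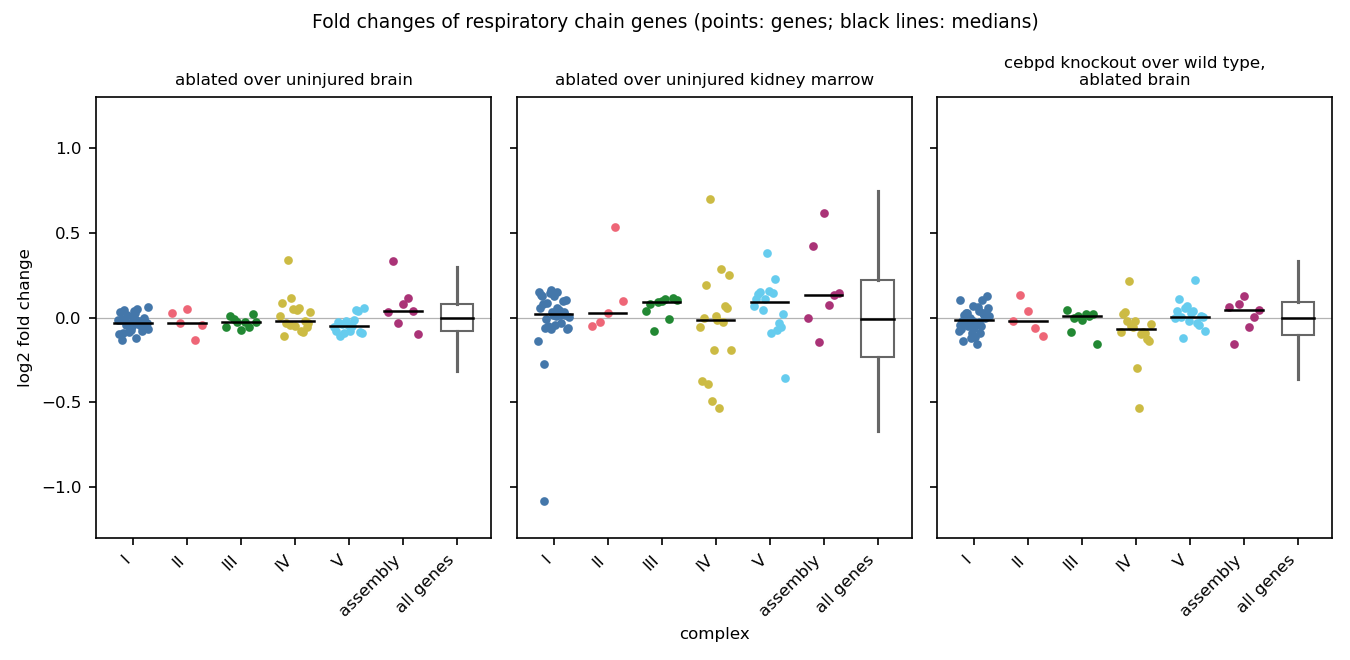
Log2 fold changes (vertical axis) of respiratory chain genes by complex in ablated over uninjured brain, ablated over uninjured kidney marrow, and cebpd knockout over wild type ablated brain; points are genes, black lines are medians, and the box with whiskers gives the quartiles and the 5th and 95th percentiles of all tested genes. Points of ablated over uninjured brain lie between -0.13 and 0.34, and those of knockout over wild type brain between -0.53 and 0.22. Kidney marrow points reach 0.70 for cox6a1 and -1.08 for ndufa4.

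Other mitochondrial genes were taken as 6 lists. In ablated against uninjured kidney marrow 66 of 68 genes of the mitochondrial ribosome lay above 0 (median log2 fold change 0.28), where 49% of all tested genes lay above 0. edgeR and DESeq2 called 0 of them, where DESeq2 called 3.53% of all tested genes higher. An unadjusted edgeR p under 0.05 was reached by 24, all higher, where 12.3% of all tested genes were higher at that threshold and 7.34% lower. Over the fits that leave out a library, 62 to 67 lay above 0. mrpl14 had 0.66 (SE 0.15), mrps33 0.66 (SE 0.12) and mrpl46 0.52 (SE 0.12), with edgeR adjusted p of 0.0999 to 0.129. Assembly factors of complexes III to V lay above 0 for 17 of 22 (median 0.24), import and cristae genes for 17 of 23 (0.10), and biogenesis genes for 4 of 9 (-0.09). Carriers and pores lay above 0 for 7 of 15 (-0.02) and citric acid cycle genes for 2 of 16 (-0.07). The citric acid cycle count rested on single libraries. It was 9 of 16 (0.0056) without ablated replicate 1 and 1 of 16 (-0.15) without ablated replicate 2. edgeR called 0 genes of these 5 lists, and DESeq2 called 1, in the import list. tfam, which packages mitochondrial DNA, had 0.47 (SE 0.14) and tomm40l, an outer membrane import pore gene, had 0.92 (SE 0.13), with edgeR adjusted p of 0.163 and 0.0793. The cell cycle and erythroid genes described above lay above 0 in the same libraries.

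In ablated against uninjured brain and in cebpd knockout against wild type brain, edgeR and DESeq2 called 0 genes of any of the 6 lists. At an unadjusted p under 0.05 the ribosome list had 0 higher and 1 lower gene in ablated brain, and 4 higher and 1 lower in knockout brain. Between the uninjured tissues, citric acid cycle genes were mostly lower in brain, with 9 of 17 called lower and 1 higher, where 39.2% of all tested genes were lower and 38.9% higher. suclg1, a subunit of succinyl-CoA ligase, had -1.35 (SE 0.10, edgeR adjusted p = 5.99e-05) and dlst had -0.91. Against the same shares, the mitochondrial ribosome had 17 genes lower and 3 higher of 68, and import and cristae genes 6 lower and 10 higher of 24. Carriers and pores had 8 lower and 6 higher of 16, with a median log2 fold change of -0.85. Carrier and pore genes summed to 3470 to 3490 CPM in brain and 10100 to 11000 CPM in kidney marrow. Among them the ADP/ATP carrier gene slc25a6 was higher in brain (7.46, SE 0.16, adjusted p = 1.03e-06), and the uncoupling protein genes ucp3 (-5.41, SE 0.19) and ucp1 (-3.31, SE 0.09) were lower. Assembly factors of complexes III to V had 4 lower and 6 higher of 22, and biogenesis genes 2 lower and 2 higher of 9.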

How the data were processed

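The unit of the deposited tables is the count: the authors gave, for every gene symbol, the whole number of reads assigned to it, with no normalization. The submitters' processing notes mix both assays in a single list and name the build danRer10. They name HTSeq (1.6.1) and TopHat2 (2.1.1) besides Trim Galore (0.6.4 and 0.4.1), SAMtools (1.5), Bowtie2 (2.2.5), MACS2 and Picard (1.91). Which annotation, strand setting and rule for multiply mapped reads applied is not given in the sources used here. The 10 ATAC-seq samples were not analysed here. Summary lines that name no gene were left out: reads outside genes took 37.4% to 58.3% of the total.

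Each comparison was fitted on all genes of its own groups with edgeR 4.0.16 in R 4.3.3 (filterByExpr, TMM, glmQLFit, glmQLFTest, Benjamini-Hochberg adjustment over all tested genes, threshold 0.05). CPM use the TMM scaling of that comparison, so a library's level differs slightly between comparisons. Standard errors come from the F statistic and intervals cover 95%. The scripts were tested on simulated data. The members and the 19 gene lists (287 of 328 entries in the files) were chosen with earlier results of these data known. Named genes are up to 10 called genes per direction in the tissue comparison, up to 5 of smallest p per direction elsewhere, fixed core subunits, gene copies, and up to 3 per list. Other genes are marked. A gene of the rule is counted in the totals but not reported here by name. Alternatives tried were DESeq2 1.42.0, RLE size factors, no filter, a mean count of at least 50, each library left out, a replicate block and wider fits.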

Additional observations from a re-analysis of the deposited data

How the results depend on the processing

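Leaving out each library gave 11 to 19 genes called higher and 19 to 48 lower in brain against kidney marrow, with a median log2 fold change of -0.189 to -0.152. The median was -0.188 with RLE size factors and with DESeq2, -0.174 without a low-count filter, -0.148 with all 8 libraries in 1 fit and -0.162 in ablated fish. Genes that were not called could change sign there. ndufv1 ran from -0.103 to 0.0287 over the fits that leave out a library, and was 0.0158 with 8 libraries and 0.00493 in ablated fish. atp5g3a ran from -0.0149 to 0.0332 and was -0.147 in ablated fish, where cox8a was -0.0107 and ndufab1b -0.0214. In kidney marrow DESeq2 called 1 gene higher and 3 lower after ablation, and the 8-library fit 2 higher and 2 lower. In cebpd knockout brain 0 to 1 gene was called lower when a library was left out. For the difference between tissues, DESeq2 called 2 positive and 1 negative, leaving out a library 0 to 2 positive and 0 to 1 negative, and the median ran from -0.113 to 0.0755. The cause of these shifts was not tested.

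The labels do not say that a replicate number marks a shared animal or day, and the numbers were not taken as pairs. Deviations of same-numbered libraries correlated at 0.0633 in brain, 0.328 in kidney marrow, 0.168 between tissues, and -0.0731 to -0.0121 in the cebpd experiment. With the replicate block, calls over all genes numbered 433 higher and 165 lower in kidney marrow (0 and 0 without it), 163 and 195 in brain (35 and 21), and 22 and 44 in the cebpd experiment (4 and 11). Of the respiratory chain genes, 1 was called higher (cox6a1) and 2 lower (cox7a1 and ndufa4) in kidney marrow, and 1 negative difference between tissues (cox6a1, edgeR adjusted p = 0.0414). Where a 95% interval includes 0, no difference was detectable at this depth and number of libraries.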

Other observations

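The ablation and cebpd experiments each hold ablated brain of fish labelled wild type, and many but not all respiratory chain genes stood higher in the cebpd experiment. On CPM scaled over all libraries, 56 of 90 genes (62.2%) lay above in all 3 wild type libraries of the cebpd experiment compared with both ablated libraries of the ablation experiment, where 27.6% of 11915 genes did. Only 3 of 90 lay below (3.33%, against 29.7% of all genes). The median log2 ratio was 0.43 over the 90 genes and -0.0024 over all genes. Genes above numbered 14 of 17 in complex IV, 26 of 36 in complex I and 10 of 16 in complex V, and 3 of 9 in complex III. They numbered 2 of 5 in complex II and 1 of 7 among assembly factors. The core subunits ndufs1, ndufv1, sdha, sdhb, uqcrfs1, cyc1, uqcrc1, atp5a1, atp5b and atp5c1 had log2 ratios of -0.13 to 0.10. cox4i1 had 0.53 and cox5aa 0.59. ndufa2 stood at 71.6, 53.0 and 68.3 CPM in the cebpd experiment and 22.8 and 26.2 CPM in the ablation experiment. The 2 experiments differ in depth, and fish, preparation and sequencing cannot be told apart here.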
